A study of Mus musculus with 16 samples.

Results

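The comparison set 1 library labelled E9.5 cranial mesenchyme against 1 library labelled E8.5 mesoderm, 2 of the 16 RNA-seq libraries of an atlas of the early mouse face. Embryos of the outbred CD1 strain were dissected at embryonic day 8.5 (E8.5) for the mesoderm and at E9.5 for the mesenchyme, and the labels name no mutation, transgene or treatment in either group. How many embryos went into a library is not given in the sources used here. A gene was counted as higher or lower when the libraries differed by 2-fold or more and the higher library had a level of at least 5, where the level is the value divided by the smallest one that gene has among the 16 libraries. There is 1 library per group, so no difference has a replicate check or a p-value, and stage and tissue cannot be told apart.

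The mesenchyme of the head comes from 2 sources. Cranial mesoderm lies beside the neural tube and gives rise to head muscle, blood vessels and part of the skull. Neural crest cells leave the dorsal neural tube, switch off early crest genes such as Sox10 where they become skeletal and connective tissue, and populate the frontonasal region and the pharyngeal arches. Homeobox factors of the Alx family mark frontonasal mesenchyme, and Dlx factors mark the arches.

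Each deposited value is relative to that gene's own median among the 16 libraries, so values compare libraries for 1 gene and not genes with each other. For 8794 of 15876 genes at least 2 libraries share the lowest value, here called the floor, and a fold against a library at the floor is written "at least". The cranial mesenchyme was at the floor for 54.2% of these genes and the mesoderm for 56.2%, within the range of 50.6% to 81.5% over all libraries. For the other 7082 genes the level is a lower bound. The median log2 ratio of cranial mesenchyme to mesoderm over these 7082 genes was -0.21, and it was removed, so all folds are relative to the median gene. A gene at the floor in both libraries has a log2 ratio of 0.21 on this scale, which is also the median over all 15876 genes. The labels state a depth of over 40000000 reads per library, and no total per library was used here, so no counting error was computed.

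In all, 520 genes were higher in the cranial mesenchyme (3.28% of 15876) and 246 were lower (1.55%). Pseudogenes made up 43.1% of the higher genes. Among 12176 protein-coding genes the order was the other way, with 169 higher (1.39%) and 214 lower (1.76%). Of the 2783 genes with a level of at least 5 in either library, 18.7% were higher and 8.84% lower, and of the 2220 protein-coding ones 7.61% and 9.64%. In the lists below, genes not counted include those below a level of 5 in both libraries. Of the 169 genes, 40 were at the floor in the mesoderm, and of the 214 genes 26 were at the floor in the cranial mesenchyme. The cranial mesenchyme was the highest of the 16 libraries for 87 of the 169, and the mesoderm was the highest for 113 of the 214. Just inside the threshold were, among others, Magohb (2.01-fold higher) and Aurkaip1 (2.01-fold lower), and just outside it were Prkar2b (1.99-fold higher) and Rpl7a (1.99-fold lower).

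**Figure D1:**
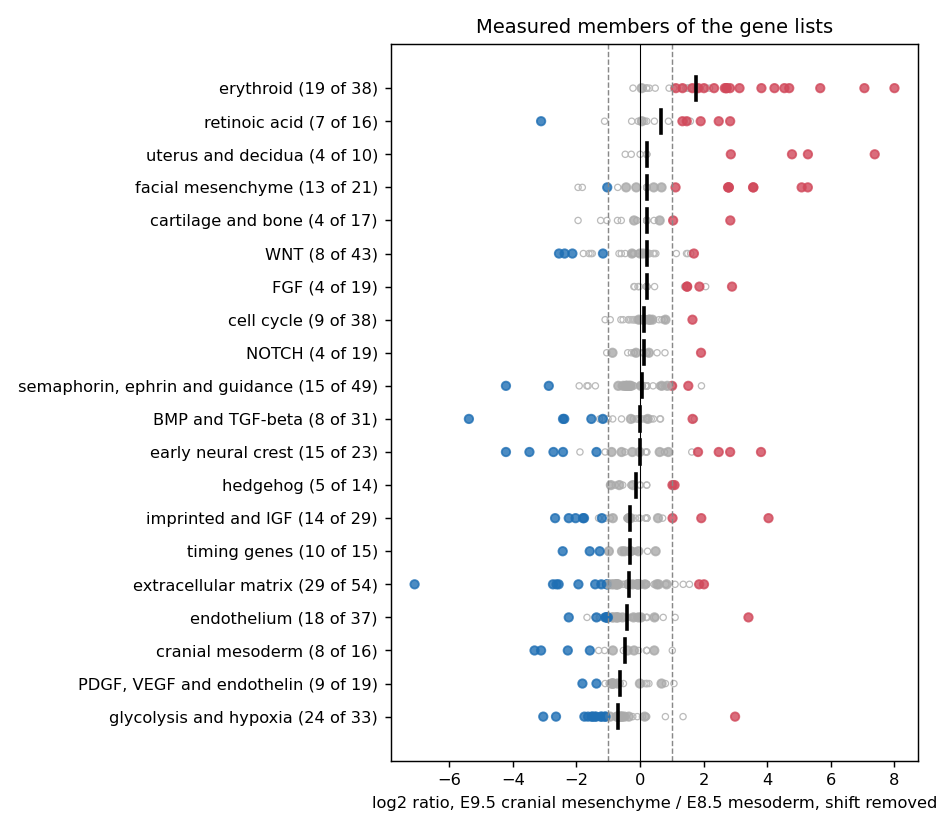
Each point is a measured gene of a list, at its log2 ratio of E9.5 cranial mesenchyme to E8.5 mesoderm after the shift was removed. Filled points had a level of at least 5 in either library (red higher, blue lower, grey neither), open points did not, the bar is the median over all measured members, and the numbers in parentheses give the filled and the measured members. Lists with few or no filled members are not drawn. The erythroid list has the highest median, 1.75, and the glycolysis and hypoxia list the lowest, -0.69.

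The markers of cranial mesenchyme were above the floor in both libraries. Alx1, a homeobox factor of frontonasal mesenchyme, was at a level of 11.2 in the cranial mesenchyme and 1.86 in the mesoderm, 6.93-fold higher. Prrx1, a homeobox factor of head and limb mesenchyme, was at 16.5 and 8.80, 2.17-fold higher relative to the median gene but 1.87-fold as deposited. Pdgfra, a growth factor receptor of mesenchyme, was at 10.7 and 7.72 and was not counted. Sox10, which marks migrating neural crest, was at the floor in the cranial mesenchyme and at 12.9 in the mesoderm, at least 11.1-fold lower, and at most 1.51 in the other 14 libraries. The library labelled mesoderm held Sox10 RNA beside RNA of Foxc1 (level 15.1), a gene of the cranial mesoderm list. Foxc1 does not single out mesoderm here. It was at 11.5 in the cranial mesenchyme and at 4.23 and 12.7 in the E9.5 mandibular and maxillary arches. In bulk tissue, fewer cells of a type and less RNA per cell cannot be told apart.

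Of 21 measured facial mesenchyme genes, 8 were higher, 1 was lower and 12 were not counted. The list median was 0.21, the value of a gene at the floor in both libraries, since 8 members were at the floor in the cranial mesenchyme and 9 in the mesoderm. Alx4, a relative of Alx1, was at 20.8 and 3.48, 6.91-fold higher. Alx1 and Alx4 were thus well above the mesoderm, while in the E9.5 mandibular and maxillary arches Alx4 was at 1 in both and Alx1 at 1 and 1.99. The highest Alx1 level of the atlas was 27.1, in the E10.5 lateral nasal prominence.

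Tbx3, a T-box repressor, was at 29.3 in the cranial mesenchyme and at the floor in the mesoderm, at least 33.9-fold higher. Its paralog Tbx2 was at 5.89 against the floor, at least 6.82-fold higher. Tbx3 was high in the arches too (24.9 and 21.7), unlike Alx1 and Alx4. Six2, a homeobox factor of head mesenchyme, was at 44.3 and 4.36, 11.8-fold higher, and Shox2, a homeobox factor of palate and limb, was at 10.2 against the floor, at least 11.8-fold higher. Prrx2 was the lower member, at 3.67 and 8.69 (2.04-fold), and it was not counted when the shift of ribosomal protein genes was removed instead. Twist1 (16.7 and 21.0), Msx1 (8.63 and 7.40) and Meis2 (6.78 and 10.6), further transcription factors of this tissue, differed by less than 2-fold.

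Genes of the arch program were not among those higher. Of 12 measured genes of the Dlx and distal arch list, 0 were higher and 1 was lower, Mef2c (2.19 and 5.44, 2.14-fold), a MADS-box factor. With the shift of ribosomal protein genes removed it was 1.67-fold lower and not counted. Dlx2, Dlx5 and Hand2, which pattern the arches along their proximal to distal axis, were at the floor in the cranial mesenchyme. In the E9.5 mandibular arch they were at 19.4, 47.2 and 25.2. In the mesoderm Dlx5 and Hand2 were at the floor and Dlx2 was at 2.77. In the cranial mesenchyme 10 of the 12 measured members were at the floor, and its levels of Alx1 and Alx4 were above those of either E9.5 arch.

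**Figure D2:**
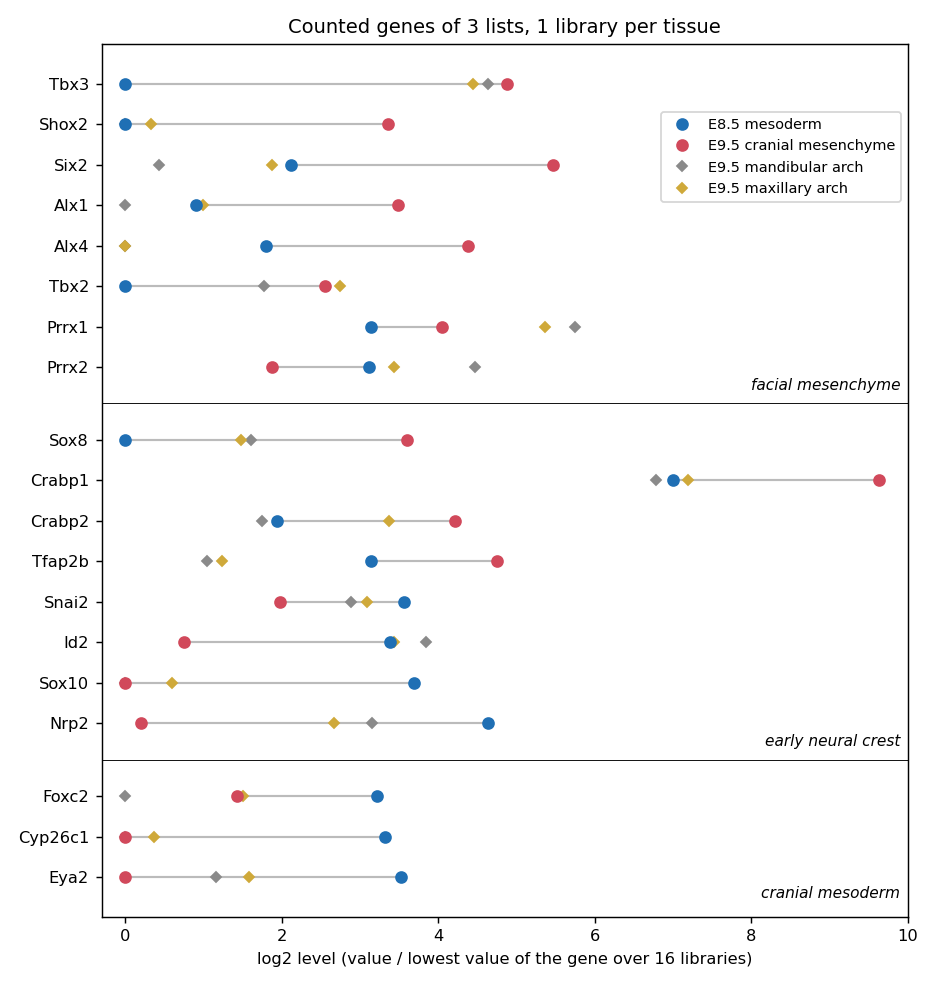
Log2 level of the counted genes that the text names from the facial mesenchyme, early neural crest and cranial mesoderm lists in 4 libraries, where 0 is the smallest value of that gene among the 16 libraries. A grey line joins E8.5 mesoderm (blue) to E9.5 cranial mesenchyme (red), and diamonds are the E9.5 arches: the 3 cranial mesoderm genes drawn are lower in the cranial mesenchyme, while 7 of the 8 facial mesenchyme genes drawn are higher.

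The early neural crest genes went in both directions. Of 23 measured members 4 were higher and 5 lower, with a list median of -0.01. Lower with Sox10 was Nrp2, a semaphorin and VEGF-C receptor of migrating crest (1.15 and 24.9, 18.6-fold). Snai2, a repressor of epithelial adhesion genes in emigrating crest, was at 3.95 and 11.8, 2.58-fold lower. For Nrp2, Sox10 and Snai2 the mesoderm was the highest of the 16 libraries. Foxd3, a factor of premigratory crest, was at 4.29 in the mesoderm and at the floor in the cranial mesenchyme, below the level needed to be counted.

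The higher members of the list were Sox8, Crabp1, Crabp2 and Tfap2b. Sox8, of the same SoxE group as Sox10, was at 12.1 in the cranial mesenchyme and at the floor in the mesoderm, at least 13.98-fold higher and at most 3.04 elsewhere. Tfap2b, an AP-2 factor, was at 27.0 and 8.83, 3.54-fold higher. Sox9 (11.6 and 8.72), the third SoxE gene, and Tfap2a (16.7 and 10.4) were not counted. The SoxE genes therefore differed in direction, with Sox10 lower, Sox8 higher and Sox9 within 2-fold.

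Cranial mesoderm genes were lower or not counted. Of 16 measured members 0 were higher and 4 lower, with a median of -0.46. Eya2, a transcriptional cofactor of homeobox proteins, was at the floor in the cranial mesenchyme and at 11.5 in the mesoderm, at least 9.97-fold lower. Cyp26c1, which degrades retinoic acid in anterior head mesoderm, was at the floor and at 10.01, at least 8.65-fold lower and at most 1.29 in the other 14 libraries. Foxc2, a forkhead factor, was at 2.70 and 9.34, 2.99-fold lower. The relatives Foxc1 (11.5 and 15.1), Six4 (4.64 and 7.05) and Eya1 (10.4 and 8.82) did not reach 2-fold. Tbx1 (1 and 2.85) and Tcf21 (1 and 1.67), markers of head muscle progenitors, were low in both libraries.

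Some genes of the neural plate were detected in the mesoderm and near the floor in the cranial mesenchyme. Of 26 measured neural progenitor and forebrain genes 3 were lower and 0 higher. Zic2, a zinc finger factor of dorsal neural tissue and adjacent mesoderm, was at 1.44 and 14.8, 8.89-fold lower. Zic1 was at 1.10 and 9.26, 7.24-fold lower. Otx2, a homeobox factor of the anterior neural plate and head mesenchyme, was at 2.01 and 11.5, 4.92-fold lower, where the highest library stood at 93.5. Foxd1, a forkhead factor outside the lists, was at 1.22 and 17.6, 12.5-fold lower, and at 20.03 in the E8.5 floor plate. The summed level of the list was 37.2 in the cranial mesenchyme and 82.3 in the mesoderm against 504 in the highest library, an E10.5 neural epithelium. The part of neural tissue in the differences of Zic1, Zic2, Otx2 and Sox10 was not tested.

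Retinoic acid genes had a median of 0.67 over 16 measured members, with 5 higher and 1 lower. Crabp1, a cytoplasmic carrier of retinoic acid that is abundant in cranial crest, was at 791 in the cranial mesenchyme and 128 in the mesoderm, 7.14-fold higher, and the next library, E9.5 epidermal ectoderm, was at 193. Its paralog Crabp2 was at 18.5 and 3.85, 5.56-fold higher. Stra6, the cell surface receptor for vitamin A uptake, was at 11.5 and 3.54 (3.75-fold). The receptor Rarg was at 6.85 and 3.15 (2.52-fold). Carriers, uptake and a receptor were thus higher, and the degrading enzyme Cyp26c1 was lower. Aldh1a2 and Aldh1a3, which make retinoic acid, were at or near the floor in both libraries.

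The FGF list had 4 higher members and 0 lower among 19 measured, with a median of 0.21. These 4 are transcriptional readouts or feedback inhibitors of FGF signalling and were the members at a level of 5 or more in either library. Il17rd, a membrane inhibitor of FGF receptors, was at 7.02 and 1.09 (7.43-fold), and Etv5, an ETS factor, at 8.69 and 2.76 (3.65-fold). Dusp6, a phosphatase of ERK, was at 17.9 and 7.41 (2.80-fold), and Etv1 at 5.18 and 2.15 (2.78-fold). The ligands Fgf8, Fgf9, Fgf10, Fgf15, Fgf17 and Fgf18 were at the floor in both libraries.

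Of 43 measured WNT genes 1 was higher, 4 were lower and 38 not counted, with a median of 0.21. Of the 38, 35 were below a level of 5 in both libraries. Among all protein-coding genes at that level in either library, 7.61% were higher and 9.64% lower. Axin2, a target and inhibitor of the pathway, was at 3.84 in the cranial mesenchyme and 23.0 in the mesoderm (5.17-fold), and Nkd1, another inhibitor and target, at 2.61 and 17.7 (5.85-fold). Rspo1, a secreted amplifier, was at 5.24 and 26.5 (4.37-fold), and the nuclear effector Tcf7 at 2.74 and 7.12 (2.24-fold, and 1.75-fold with the shift of ribosomal protein genes removed). The inhibitors Nkd2 (3.94 and 2.07), Dkk3 (3.55 and 1.49) and Sfrp2 (3.95 and 1.62) had the higher level in the cranial mesenchyme but were below the level needed to be counted. Wnt5a, a ligand of the noncanonical pathway, was the higher member at 8.15 and 2.91 (3.24-fold).

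In the BMP and TGF-beta list 1 of 31 measured members was higher and 5 were lower, and 23 were below a level of 5 in both libraries. Id1, Id2 and Id3, inhibitors of basic helix-loop-helix factors and targets of BMP signalling, were at 4.09, 1.69 and 8.62 in the cranial mesenchyme. In the mesoderm they were at 10.7, 10.47 and 28.8, so that they were 2.25-, 5.36- and 2.89-fold lower. With the shift of ribosomal protein genes removed Id1 was 1.76-fold lower and not counted. Fst, an antagonist of activin, was at the floor and at 6.04, at least 5.22-fold lower. Tgfb2, a ligand, was at 5.89 and 2.17, 3.15-fold higher. The secreted glycoprotein gene Fstl1 was listed at the floor in the cranial mesenchyme and at 48.3 in the mesoderm. It was at the floor in 5 libraries in all and at 9.30 or more in the other 11, with none between.

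Single members stood out in the other signalling lists. In the hedgehog list the coreceptors Cdon (7.47 and 4.07, 2.12-fold) and Gas1 (12.6 and 7.16, 2.03-fold) were higher, and neither was counted as deposited. Hey1, a NOTCH target, was 3.78-fold higher than its level of 2.30 in the mesoderm. Among guidance genes Cxcl12, a chemokine that attracts migrating cells, was at 20.7 and 8.35 (2.87-fold higher), and Robo2, a SLIT receptor, was at 1.34 and 11.3 (7.31-fold lower). Vegfc, a ligand of vessel growth, was at 1.99 and 8.10 (3.51-fold lower).

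Extracellular matrix genes were more often lower than higher, with 9 lower and 2 higher of 54 measured and a median of -0.36. With the shift of ribosomal protein genes removed instead, 6 were lower and 3 higher, and P4ha1, below, was among those no longer counted. Hapln1, which links hyaluronan to proteoglycans, was at 6.25 in the cranial mesenchyme and 42.6 in the mesoderm (5.90-fold lower), and its highest level in the other libraries was 12.1. Enzymes that modify or crosslink collagen were among the lower genes, with Loxl2 at 1.36 and 10.53 (6.67-fold), Plod2 at 2.74 and 19.6 (6.17-fold) and P4ha1 at 2.84 and 6.78 (2.06-fold). The proteoglycan gene Bgn was at 2.88 and 12.8 (3.83-fold lower). Col1a2, a chain of type I collagen, was at 44.6 and 12.8 (4.03-fold higher), and Nid1, of the basement membrane, was at 22.3 and 7.12 (3.63-fold higher). Vcan, the hyaluronan-binding proteoglycan, was listed at the floor in the cranial mesenchyme and at 158 in the mesoderm. It was listed at the floor in 6 libraries, both E9.5 arches included, and at 15.3 or more in the other 10, so its difference of at least 136-fold rests on that split.

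Of 29 measured imprinted and IGF genes 6 were lower, 3 higher and 20 not counted, 15 of them below a level of 5 in both libraries. Igf2, a fetal growth factor expressed from the paternal allele, was at 57.3 and 225 (3.39-fold lower), and Igf1 was at 3.71 and 17.5 (4.08-fold lower). Their binding proteins differed in direction, with Igfbp5 (1.39 and 10.2, 6.37-fold) and Igfbp2 (2.68 and 14.7, 4.73-fold) lower and Igfbp3 (13.5 and 7.71, 2.03-fold) higher. Igfbp3 was not counted as deposited. Dlk1, a paternally expressed membrane protein gene, was at 14.2 against the floor, at least 16.5-fold higher, where the highest library stood at 131. Of 15 measured timing genes 3 were lower and 12 not counted, 5 of them below a level of 5 in both libraries. Lin28a, an RNA-binding protein that blocks let-7 maturation and declines with stage in most tissues, was at 7.05 and 44.0 (5.40-fold lower), whereas Lin28b was at 11.6 and 9.57 and was not counted. Of 38 measured cell cycle genes 1 was counted, Cdk6 (6.12 and 2.26, 3.14-fold higher), with a list median of 0.13. Among the rest, 29 were below a level of 5 in both libraries.

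Glycolysis and hypoxia genes were the lowest list by median (-0.69 over 33 measured members), with 12 lower and 1 higher. Many of these genes are classical targets of hypoxia-inducible factors, whose binding core in DNA is ACGTG. RefSeq promoters of build GRCm38.p6 were matched for 11 of the 12 lower genes, and 5 of these 11 held ACGTG on either strand within 250 bases before the start. Of all 27025 genes of the table, 16.6% did. The submitters' processing notes name build mm9 for the expression data, so these positions are not those of the deposited files. The 160 bases before the start are shown for 3 of the 5, with the core in capitals (CACGTG holds it on both strands), because they are a glycolytic enzyme, the lactate-forming enzyme and a mitophagy receptor of the list:
Pgk1 (chrX:106186940-106187099, plus strand): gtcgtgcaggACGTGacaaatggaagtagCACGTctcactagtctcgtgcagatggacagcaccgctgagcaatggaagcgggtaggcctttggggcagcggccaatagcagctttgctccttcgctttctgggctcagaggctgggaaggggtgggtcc
Ldha (chr7:46845644-46845803, plus strand): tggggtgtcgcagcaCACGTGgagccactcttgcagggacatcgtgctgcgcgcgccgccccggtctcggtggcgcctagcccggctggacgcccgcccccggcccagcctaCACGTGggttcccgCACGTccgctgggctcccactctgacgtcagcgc
Bnip3 (chr7:138909507-138909666, minus strand): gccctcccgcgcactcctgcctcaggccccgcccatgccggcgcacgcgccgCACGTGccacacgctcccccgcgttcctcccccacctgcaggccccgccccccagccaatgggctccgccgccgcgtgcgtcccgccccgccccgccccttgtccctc
CCACCC, a motif taken up below for the erythroid genes, was in 5 of the same 11 promoters, against 27.7% of all genes of the table. The matches describe letters in the sequence and show no binding.

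Pgk1 was at 6.58 in the cranial mesenchyme and 21.5 in the mesoderm (2.82-fold lower), Ldha at 8.39 and 22.9 (2.35-fold lower) and Bnip3 at 3.03 and 21.9 (6.24-fold lower). The mesoderm was the highest of the 16 libraries for Pgk1 and Bnip3, while for Ldha the E8.5 caudal brain was the highest (29.0). The summed level of the list was 187 in the cranial mesenchyme and 412 in the mesoderm. In the E9.5 mandibular and maxillary arches it was 185 and 177. Of the glucose and lactate transporters in the list 3 were lower, and the lactate transporter Slc16a1 (7.61 and 7.95) was not counted. Slc2a3, a glucose transporter, was at 1.51 and 14.4 (8.25-fold), Slc2a1 at 5.20 and 17.2 (2.86-fold), and Slc16a3, which exports lactate, at 7.94 and 28.6 (3.10-fold). For Slc2a3 and Slc2a1 the E8.5 floor plate was the highest library, at 60.8 and 44.5. The phosphofructokinase subunits Pfkp (3.22 and 12.5, 3.36-fold) and Pfkl (7.69 and 23.2, 2.61-fold) were lower, as was Pdk1 (5.77 and 14.2, 2.12-fold), which restrains the entry of pyruvate into mitochondria. Ldhb, the lactate dehydrogenase subunit typical of oxidative tissue, was the higher member at 8.73 and 1.27 (7.94-fold). Aldoa, Tpi1, Pkm, Eno1, Pgam1, Gpi1 and Hk2 had log2 ratios between -0.94 and -0.49 and were not counted. With the shift of ribosomal protein genes removed, 8 members were lower in place of 12, and Ldha and Pdk1 were among those no longer counted.

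**Figure D3:**
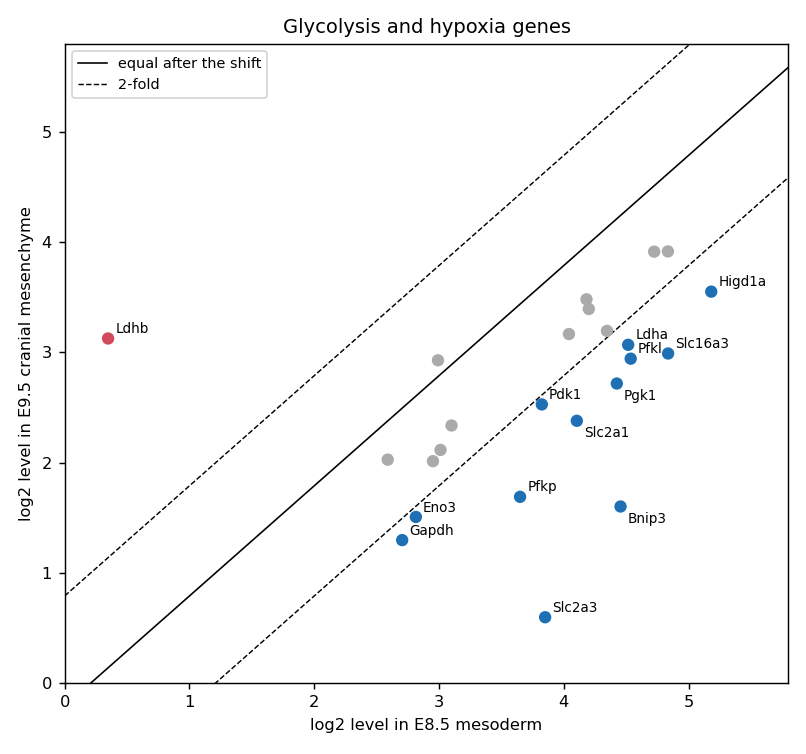
Log2 level of the 24 glycolysis and hypoxia genes with a level of at least 5 in either library, in E8.5 mesoderm (x) and E9.5 cranial mesenchyme (y). The solid line marks equal values after the shift and the dashed lines 2-fold: 12 genes lie below the lower dashed line (blue) and Ldhb above the upper one (red).

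Erythroid genes formed the highest list by median, 1.75 over 38 measured members, with 18 higher and 0 lower (17 higher as deposited). Primitive red cells of the yolk sac enter the embryo once circulation begins, and they make embryonic globins. Erythroid promoters are known for CACCC boxes, bound by Klf1. Of the 18 higher genes 8 matched RefSeq promoters of the same build, and 6 of the 8 held CCACCC on either strand within 250 bases before the start, against 27.7% of all genes of the table. AGATAA, to which erythroid zinc finger factors bind, was in 1 of the 8 and in 10.3% of all, and ACGTG was in 0 of the 8. The search took AGATAA alone, so variants such as the TGATAA in the Hba-x sequence below were not scored. The 160 bases before the start are shown, with CCACCC in capitals, for the 3 genes of the list with the largest fold, which are an embryonic beta-like, an embryonic alpha-like and an adult alpha globin:
Hbb-y (chr7:103853208-103853367, minus strand): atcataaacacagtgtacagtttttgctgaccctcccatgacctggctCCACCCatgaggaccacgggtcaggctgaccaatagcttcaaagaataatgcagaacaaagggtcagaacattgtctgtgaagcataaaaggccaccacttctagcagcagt
Hba-x (chr11:32276440-32276599, plus strand): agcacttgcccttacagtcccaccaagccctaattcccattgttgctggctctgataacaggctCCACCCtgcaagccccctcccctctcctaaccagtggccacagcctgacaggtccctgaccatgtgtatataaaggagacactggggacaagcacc
Hba-a1 (chr11:32283512-32283671, plus strand): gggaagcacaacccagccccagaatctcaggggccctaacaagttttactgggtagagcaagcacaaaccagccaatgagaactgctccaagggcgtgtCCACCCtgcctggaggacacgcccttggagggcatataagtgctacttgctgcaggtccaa
As above, a match is a description and not a binding site.

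Hbb-y was at 1766 in the cranial mesenchyme and 7.97 in the mesoderm, 257-fold higher. Hba-x was at 1617 and 36.8 (50.9-fold), and Hba-a1 at 152 and 1.32 (133-fold). The embryonic beta-like gene Hbb-bh1 was at 759 and 33.96 (25.9-fold). Hbb-bh0, which is in no list and is annotated as a pseudogene, was at 50.2 against the floor, at least 58.1-fold higher. For each of these 5 genes the cranial mesenchyme was the highest of the 16 libraries. The paralogs Hba-a1 and Hba-a2, and Hbb-b1 and Hbb-b2, are near identical, so the split between them is uncertain.

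Some genes of the red cell membrane and of haem synthesis were higher as well, while the haem synthesis enzyme Alad, at 8.49 in the mesoderm, was not counted. Slc4a1, the anion exchanger of red cells, was at 16.2 against the floor (at least 18.8-fold). Alas2, which starts haem synthesis in red cells, was at 10.3 and 2.95 (4.03-fold), Fech, which completes it, at 6.86 and 2.23 (3.56-fold), and Slc25a37, the mitochondrial iron importer, at 8.68 and 1.998 (5.03-fold). The transferrin receptor Tfrc was at 8.51 and 3.15 (3.13-fold). The transcription factor Klf1 was at 3.94 against the floor, and Gata1 was at the floor in both libraries. The summed level of the list was 4484 in the cranial mesenchyme, 141 in the mesoderm, 827 and 2017 in the E9.5 mandibular and maxillary arches, and 55.7 in the lowest library. Of 8 measured platelet lineage genes 1 was higher and 7 were not counted. The higher one was Pf4, at 6.77 against the floor (at least 7.84-fold). The part of blood RNA in the other differences was not tested, and without the erythroid list 151 protein-coding genes were higher and 214 lower.

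**Figure D4:**
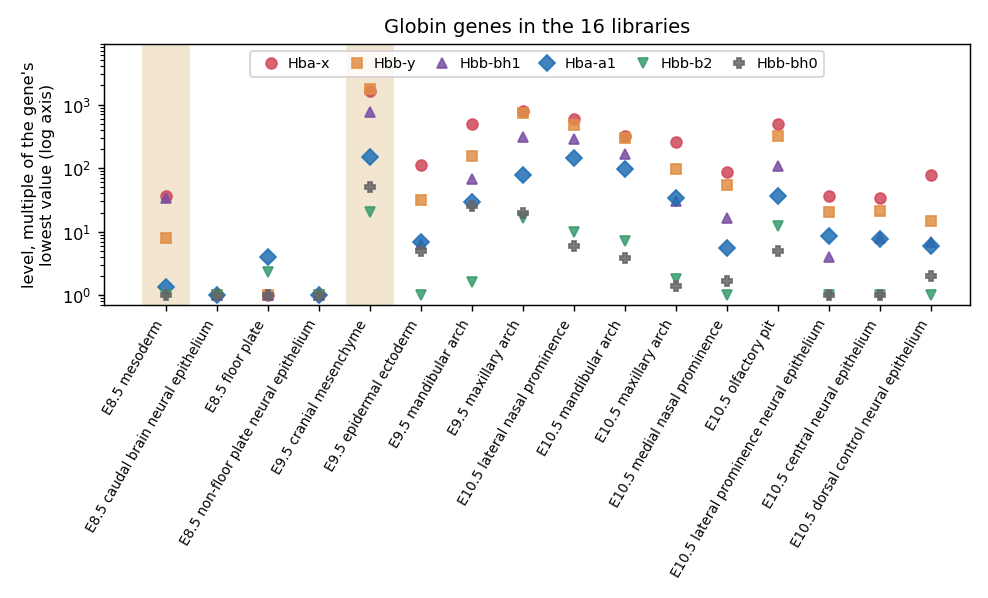
Level of 6 globin genes in each of the 16 libraries, on a log axis, with the compared libraries shaded. The E9.5 cranial mesenchyme holds the highest level of each gene, and the 3 E8.5 neural libraries are at or near the lowest.

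Of 37 measured endothelial genes 7 were lower, 1 was higher and 29 were not counted, with a median of -0.41. Of the 29, 19 were below a level of 5 in both libraries. The lower members include Tek, the angiopoietin receptor (1.29 and 7.07, 4.73-fold), Flt4, the VEGF-C receptor (3.003 and 8.98, 2.58-fold), and the transcription factors Erg (2.96 and 7.32, 2.14-fold), Sox18 (6.21 and 14.7, 2.05-fold) and Lmo2 (2.67 and 6.21, 2.01-fold). The mesoderm was the highest of the 16 libraries for each of these 5. Pan-endothelial Cdh5 (9.38 and 15.9) and Pecam1 (4.62 and 6.16) were not counted. Gja5, a gap junction protein of arterial endothelium, was the higher member at 9.19 against the floor, at least 10.6-fold. With the shift of ribosomal protein genes removed, 2 members were lower, Tek and Flt4. The summed level was 153 in the cranial mesenchyme and 251 in the mesoderm.

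Of the 10 measured genes of the uterus and decidua list, 4 were higher and 0 lower. Prap1 was at 144, Guca2b at 33.6, S100g at 23.7 and Lcn2 at 6.26 in the cranial mesenchyme, and each was at the floor in the other 15 libraries. These genes encode secreted or calcium-binding proteins of epithelia that include the uterine lining. The list was made with Prap1, Guca2b and S100g already known to mark this library, so its count shows nothing further. C3 (8.19), Klk1 (6.198) and Spp1 (6.19) were also at the floor in the other 15 libraries. The part of maternal tissue in the comparison was not tested. Members of the surface epithelium, foregut endoderm, macrophage, trophoblast, and midbrain and hindbrain lists were below a level of 5 in both libraries. Of 5 measured visceral endoderm and yolk sac genes 1 was higher, 1 was lower and 3 were not counted. The higher one was S100g again, which stands in both this list and the uterus and decidua list. In the mesoderm Apoe, a lipid carrier abundant in yolk sac endoderm, was at 32.6 against 4.004 (7.03-fold lower in the cranial mesenchyme).

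Genes at least 4-fold above each of the other 15 libraries numbered 16 in the cranial mesenchyme and 7 in the mesoderm. Beside those above, the cranial mesenchyme had Csf1, a growth factor of macrophages (13.0 against the floor), and Crym, a thyroid hormone-binding protein (16.2 and 1.38, 13.5-fold higher). Shox2, Crabp1 and Gja5 also belong to these 16, with Mir382, AC184160.2 and Gm14039. The mesoderm had Sox10, Cyp26c1 and Apoe, Sparcl1, a secreted matrix protein (2.26 and 22.3, 8.49-fold lower in the cranial mesenchyme), the scavenger receptor Colec12 (1.84 and 15.1, 7.10-fold), the transporter Abca9 (1 and 8.49, at least 7.34-fold) and the antisense transcript Foxl2os. Reads of an antisense transcript cannot be told from those of its partner where strand was not used in counting, which the sources used here do not state.

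Several of the largest differences outside these groups belong to genes that are above the floor in most libraries. Lars2, a mitochondrial leucyl-tRNA synthetase, was at 165 in the cranial mesenchyme and at the floor in the mesoderm, and in all it was at the floor in 4 libraries and at 21.7 or more in 12. Csnk1e, a kinase, was at the floor in the cranial mesenchyme and 1 other library and at 18.3 or more in 14. Such a gap, with no library between the floor and a level of 5 and 4 or more libraries past it, was found in 5 of the higher and 3 of the lower genes. Ptn (1 and 19.3, 16.6-fold), Gga3 (1 and 17.6, 15.2-fold), Mettl3 (1 and 9.98, 8.62-fold) and Mrps7 (1 and 10.51, 9.08-fold) had the lowest value of the atlas in the cranial mesenchyme alone.

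Most pseudogenes with a level of at least 5 in either library were higher in the cranial mesenchyme. Of 1028 measured pseudogenes 242 had such a level, and 224 were higher and 3 lower. Of 165 such rows with no entry in the annotation, 86 were higher and 12 lower. A level of 5 or more was reached by 240 of the 1028 pseudogenes in the cranial mesenchyme and by 45 in the mesoderm. It was reached by 268 in the E8.5 non-floor plate neural epithelium, 144 in the E8.5 caudal brain and 5 to 31 in the other 12 libraries. Reads of a processed pseudogene and of its parent gene can be assigned to either, and 74 cytosolic ribosomal protein genes, the parents of many, had a median log2 ratio of -0.36 with 1 higher and 0 lower. The mitochondrial ribosomal RNA mt-Rnr1 was at 31599 in the cranial mesenchyme, 39177 and 27134 in the same 2 neural libraries, and at the floor in the other 13. Lists of protein-coding genes do not include these rows, and the part of library preparation or read assignment in them was not tested.

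**Figure D5:**
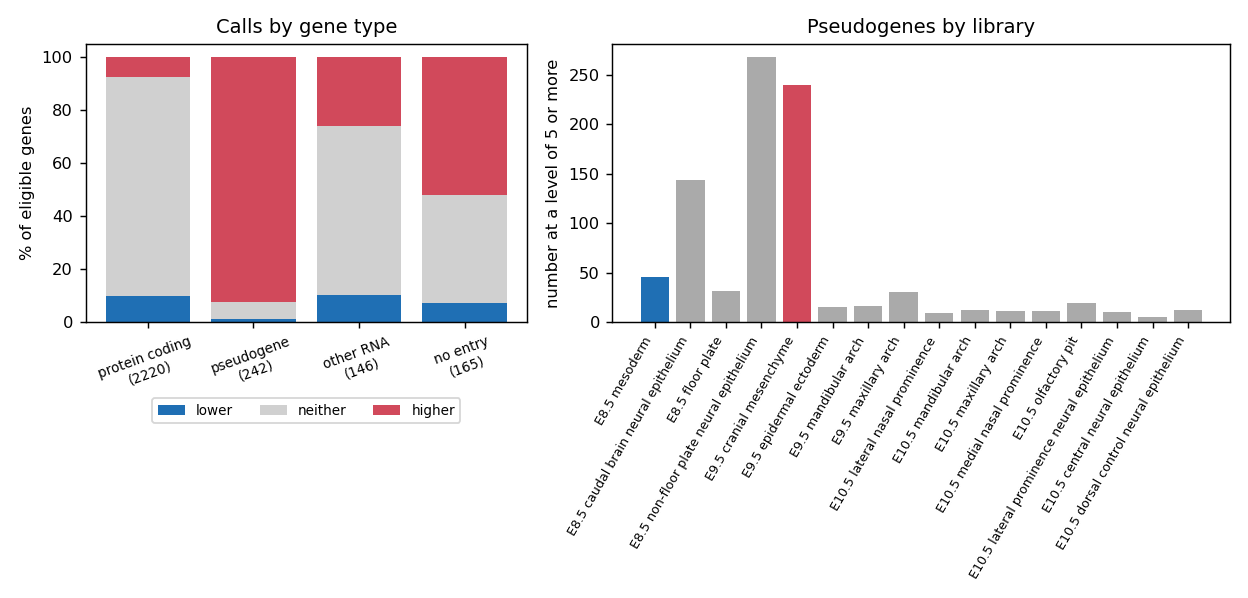
Left, share of genes with a level of at least 5 in either library that were higher (red), neither (grey) or lower (blue), by gene type of the GENCODE M21 annotation with the number of genes below (10 mitochondrial RNAs are not drawn). Right, number of the 1028 measured pseudogenes at a level of 5 or more in each library, with E8.5 mesoderm (45) in blue and E9.5 cranial mesenchyme (240) in red.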

How the data were processed

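RNA of 16 microdissected regions, 1 library each, was sequenced in single-end reads of 50 bases (Illumina), per the labels' protocols. The submitters' processing notes name Bowtie, TopHat, TopHat2 and Cufflinks and build mm9, and no source used here gives the annotation or any filter. The values deposited by the authors are a ratio, worked out from the values: each gene has a median of 1 over the 16 libraries, within 1.5e-07, and the unit before that division is not given. Ratios stop at 0.01, which held for 25 values of 6 genes. Each group has 1 library and no read totals were used, so no p-value, error or counting interval was computed.

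Levels, the median log2 shift over genes whose lowest value is not shared (relative tolerance 1e-06), folds and counts were computed in Python 3.11.15 with pandas 2.3.3 and numpy 2.4.6, and the code was tested on simulated data. Gene types were taken by Ensembl identifier from GENCODE M21 (14786 of 15876 identifiers had an entry). The 36 gene lists, with 849 genes, and the 35 families by symbol were chosen with earlier results of these data known, as was the comparison. Named genes were the 4 markers, up to 6 counted members per list and direction, and genes at least 4-fold above each other library. The 20 largest folds in each direction and the 10 largest with neither library at the floor were also named. For these, repeated symbols and symbols that mark a predicted gene or pseudogene were left out, so some annotated pseudogenes stayed in. Genes named as not counted, Foxd3, Klf1, Gata1, the Dlx and FGF genes at the floor and the family members in the closing observations, were chosen after their values were seen. Alternatives were other shifts, other fold and level thresholds, and subsets of genes. A few genes that the rule names are not reported here.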

Additional observations from a re-analysis of the deposited data

How the results depend on the processing

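With no shift removed 467 genes were higher and 350 lower, and with the shift of genes at a level of at least 5 in both libraries 505 and 268. The shift of 74 ribosomal protein genes gave 648 and 161. A minimum level of 2 gave 1062 and 543, a minimum of 10 gave 270 and 98, and no minimum 1153 and 543. A fold of at least 1.5 gave 682 and 493, and of at least 4 gave 370 and 94. Genes whose lowest value is not shared gave 139 and 100. The share of higher genes among those counted was 67.9%, and it was 57.2% with no shift removed and 80.1% with the ribosomal shift. Repeated symbols and symbols that mark a predicted gene or pseudogene were also left out. There were then 166 higher and 215 lower genes, 43.6% higher, so the order of the directions turned. Chosen after seeing the data, only protein-coding genes gave 169 and 214, the same without the erythroid list 151 and 214, and the shift of protein-coding genes 522 and 244. Of 155 named counted genes 147 kept their call with no shift removed and 151 with the level-5 shift, and under the ribosomal shift 19 were no longer counted, all of them lower. With 1 library per group no library could be left out. No paired analysis was possible because each group has 1 library. Depth per library is unknown, so differences below the floor cannot be seen.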

Other observations

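Families of genes outside the lists gave further values. Of 58 measured histone cluster genes 47 had a level of at least 5 in either library. In the cranial mesenchyme 6 of these were higher and 0 lower. The share lies between the 18.7% higher over all such genes, many of them pseudogenes, and the 7.61% over the protein-coding ones. Of the 6, Hist1h2aj is annotated as a pseudogene, and Hist1h2bn and Hist1h2bh have no entry in the annotation. As deposited 3 were higher, and with the shift of ribosomal protein genes removed 14. The lysosomal protease genes Ctsb (15.2 and 2.76, 6.39-fold) and Ctsc (7.18 against the floor, at least 8.31-fold) were higher. Among serpins, Serpinf1, a secreted inhibitor of vessel growth, was at 45.6 and 7.90 (6.68-fold higher) and Serpine2, a protease inhibitor, at 5.40 and 1.85 (3.38-fold higher). Serpinf1 was also high in the E9.5 mandibular and maxillary arches (57.5 and 45.3). Serpinh1 was at 6.50 and 15.3 (2.04-fold lower), and it was not counted with the shift of ribosomal protein genes removed. Itga5, a fibronectin receptor subunit, was at 2.10 and 6.71 (2.76-fold lower), the protocadherin Pcdh7 at 1.06 and 7.52 (6.14-fold lower) and the homeobox gene Irx5 at the floor and 6.27 (at least 5.42-fold lower). Of 4 measured Hox genes none had a level of 5 in either library.

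Of 5 measured sex-linked genes 1 was higher, 1 was lower and 3 were not counted. Xist, expressed from the inactive X chromosome, was at 9.14 in the cranial mesenchyme and 29.5 in the mesoderm (2.79-fold lower), and the Y-linked Uty was at 5.66 and 2.87 (2.29-fold higher, 1.97-fold as deposited).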
